A study of Mus musculus with 6 samples.

Results

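The genes examined here build the scaffold of the sarcomere, the repeating unit of striated muscle. They were 9 genes listed by symbol, Ttn, Neb, Actn2, Myom1, Myom2, Myom3, Mybpc1, Mybpc2 and Mybph, out of 24054 genes in the count table. Their 12 transcripts were taken from the 33705 in the transcript files. Gastrocnemius, a predominantly fast calf muscle, was profiled in 6 libraries from male C57BL/6 mice, 3 per genotype. The MI4KO mice were Irf4 flox/flox with Myl1-cre and so lacked IRF4 in skeletal muscle. The MI4OE mice carried Myl1-cre with Rosa26-LSL-IRF4 and overexpressed it there. Cre expressed from Myl1, a fast myosin light chain locus, was common to both groups, and no library without it was analysed here. The labels give a high fat diet for all 6 libraries while the study describes chow, so the diet is in doubt, and no age is given for these mice. Each difference below is therefore MI4OE against MI4KO, and a replicate number names a library and pairs nothing.

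Titin spans the sarcomere from the Z-disc, where actin filaments are anchored, to the M-band, where myosin filaments are held in register. Its I-band region acts as a spring whose length is set by splicing. Nebulin runs along the thin filament, alpha-actinin cross-links thin filaments at the Z-disc, myomesins bridge thick filaments at the M-band, and myosin-binding protein C forms stripes along the thick filament. Several of these proteins come as slow- and fast-fibre paralogues, so their transcripts differ between fibre types in healthy muscle.

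Irf4 had 6, 0 and 2 counts in MI4KO replicates 1, 2 and 3 and 2864, 10557 and 5911 counts in the MI4OE replicates, as the labels require. Totals were 18828605 to 29239585 expected counts per library, of which the scaffold genes took 2.1% to 3.12%. MI4OE replicate 1 stood apart from the other libraries. Its 10 most abundant genes took 25.5% of its counts against 32.8% to 36.8% elsewhere, and its 11 slow-fibre markers summed to 7632 CPM (counts scaled to the library's total with TMM factors) against 47.0 to 757 CPM. As a check for a library deposited more than once, the counts of replicates of a genotype were compared, and every pair differed (chi-square per degree of freedom of 46.0 or more).

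The scaffold genes showed no difference between the genotypes that exceeded the spread between mice. Of the 9 genes, 0 passed an adjusted p of 0.05 in edgeR's quasi-likelihood test, where 0.0237% of the 12660 tested genes passed. Also 0 reached an unadjusted p of 0.05, against 7.58% of all tested genes, and 0 met the study's rule of a 1.5-fold change with an unadjusted p of 0.05, against 6.64%. After adjustment 0 of 9 passed in DESeq2 or in the exact test of edgeR, where 0.877% and 0.853% of tested genes did. MI4OE and MI4KO values overlapped in all 9 genes, and they did not overlap in 12.9% of the tested genes. Of the 9, 3 had a positive and 6 a negative log2 fold change. Their median was -0.14 beside a median of 0.00 over all tested genes, and it was 0.09 without MI4OE replicate 1. The libraries themselves differed far more. MI4OE replicate 1 held the highest level of 3 genes (Myom3, Mybpc1 and Actn2) and the lowest level of the other 6.

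**Figure D1:**
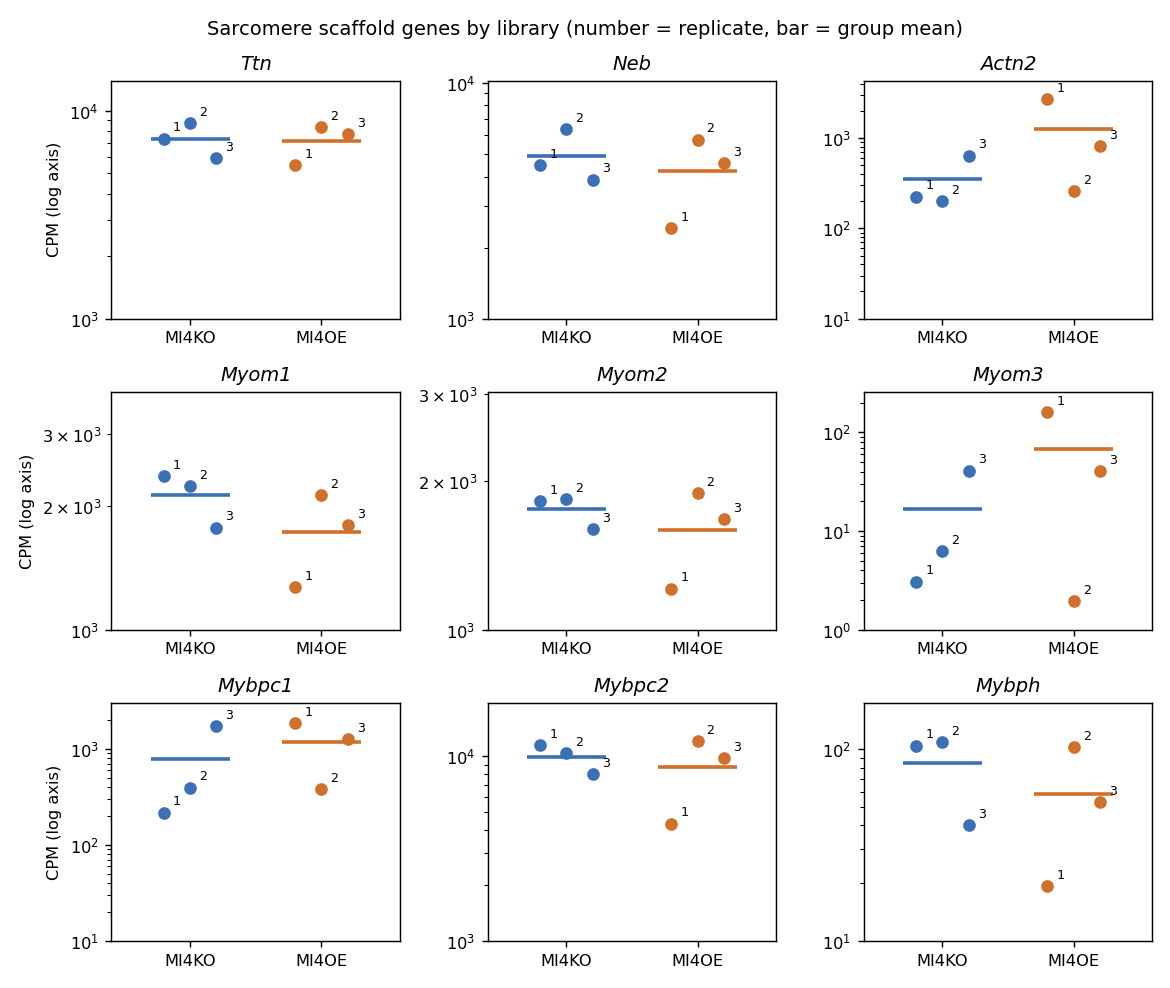
CPM of each scaffold gene on a log axis for the 3 MI4KO and 3 MI4OE libraries, with the replicate number beside each point and a bar at the group mean. The groups overlap in every panel, and MI4OE replicate 1 is the top point for Actn2, Myom3 and Mybpc1 and the bottom point in the other 6 panels.

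At the M-band, Myom1 encodes myomesin, the bridge present in all striated muscle. It measured 2372, 2241 and 1774 CPM in the knockout libraries against 1273, 2129 and 1796 CPM in the overexpressor libraries. MI4OE replicate 1 was the lowest library and the other 5 lay close together, with the groups overlapping. On the log2 scale the genotypes differed by -0.30 ± 0.25 (SE), with an adjusted edgeR p of 0.846. The difference was -0.12 without MI4OE replicate 1 and -0.47 without MI4OE replicate 2. Myom2, which encodes M-protein, a myomesin paralogue typical of fast fibres and heart, measured 1820, 1838 and 1597 CPM in the knockout libraries against 1211, 1889 and 1672 CPM in the overexpressor libraries. It followed the same order of libraries at its lower end, and its log2 fold change was -0.14 ± 0.23 (SE) with an adjusted edgeR p of 0.918. That value was 0.02 without MI4OE replicate 1 and -0.28 without MI4OE replicate 2. The ratio of Myom2 to Myom1 in TPM (RSEM's abundance, a level per length) stayed within 0.825, 0.882 and 0.969 in MI4KO and 1.03, 0.954 and 1.002 in MI4OE. These ratios overlapped between the groups, with p = 0.2 by exact permutation (two-sided), adjusted 0.6 over the 9 ratios computed.

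Myom3 encodes the third myomesin, found mostly in oxidative fibres of intermediate speed. It measured 3.07, 6.26 and 41.0 CPM in the knockout libraries against 159, 1.96 and 40.8 CPM in the overexpressor libraries. The highest library exceeded the lowest by 81.3-fold, and both were of the MI4OE genotype, while replicate 3 of each genotype gave nearly equal values. That spread on the log2 scale was wider than in 99.8% of the tested genes. On the log2 scale the genotypes differed by 2.0 ± 1.38 (SE), with an adjusted edgeR p of 0.81, and it was 0.34 without MI4OE replicate 1. Relative to Myom1, Myom3 was a minor species, with a TPM ratio between 0.000882 in MI4OE replicate 2 and 0.119 in MI4OE replicate 1 (exact permutation p = 0.7, adjusted 0.7). The log2 difference of this ratio was 1.66, and it ran from 0.07 without MI4OE replicate 1 to 3.61 without MI4OE replicate 2.

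Myom1 has 2 transcripts in the files, which differ by 1 optional coding exon of 294 bases known as the EH segment, after the embryonic heart where it was described. In the GENCODE M21 annotation (GRCm38) it is exon 18 of NM_010867 at chr17:71082203-71082496 on the plus strand, and NM_001083934 joins exon 17 to the exon after it. The exon is shown in capitals because reads inside it are what sets the 2 transcripts apart, followed by the join that skips it, with the 5 bases on each side of the join in capitals.

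Myom1 EH exon: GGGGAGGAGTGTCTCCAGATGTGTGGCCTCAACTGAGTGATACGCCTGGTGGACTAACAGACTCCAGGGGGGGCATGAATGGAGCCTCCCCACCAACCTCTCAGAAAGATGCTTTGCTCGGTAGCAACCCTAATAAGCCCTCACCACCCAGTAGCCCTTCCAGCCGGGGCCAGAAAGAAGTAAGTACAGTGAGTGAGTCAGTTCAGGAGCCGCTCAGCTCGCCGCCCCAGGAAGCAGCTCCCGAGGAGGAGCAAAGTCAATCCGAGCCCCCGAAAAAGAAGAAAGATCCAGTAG
Myom1 join without it: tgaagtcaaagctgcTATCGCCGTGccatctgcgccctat

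The transcript with the EH exon was scarce in every library. It held 165, 46.5 and 130 expected counts in MI4KO and 970, 64.0 and 475 in MI4OE, or 0.285%, 0.0821% and 0.246% of the gene's counts in MI4KO and 3.75%, 0.105% and 1.17% in MI4OE. MI4OE replicates 1 and 3 were the 2 highest libraries, and MI4OE replicate 2 lay within the MI4KO range. The mean share was 0.204 ± 0.108% in MI4KO and 1.67 ± 1.87% in MI4OE (SD, n = 3), a difference of 1.47 percentage points with an exact permutation p of 0.3. The difference was 0.432 percentage points without MI4OE replicate 1 and 2.25 without MI4OE replicate 2. Reads in the 294-base exon or across its joins are what separates the transcripts, and their number is not given in the files, so the counting error of the share is unknown. As levels, the log2 fold change of NM_010867 was 2.46 ± 1.07 (SE), with an unadjusted p of 0.0635 and an adjusted p of 0.999 over all transcripts in edgeR. It was 1.43 without MI4OE replicate 1.

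On the thick filament, Mybpc1 encodes slow myosin-binding protein C, which is made in slow and also in many fast fibres. It measured 217, 393 and 1708 CPM in the knockout libraries against 1856, 381 and 1258 CPM in the overexpressor libraries. One library of the knockout and 2 of the overexpressor were high and the other 3 low, so the groups overlapped. On the log2 scale the genotypes differed by 0.59 ± 0.82 (SE), with an adjusted edgeR p of 0.901. The difference ran from 0.09 without MI4OE replicate 1 to 1.92 without MI4KO replicate 3. Mybpc2, the fast paralogue, measured 11510, 10400 and 8030 CPM in the knockout libraries against 4321, 12120 and 9821 CPM in the overexpressor libraries. MI4OE replicate 1 alone was low. The log2 fold change of Mybpc2 was -0.19 ± 0.38 (SE), and 0.13 without that library, with an adjusted edgeR p of 0.938.

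Within a library the ratio of slow to fast isoform, Mybpc1 to Mybpc2 in TPM, was 0.0174, 0.0348 and 0.196 in MI4KO and 0.395, 0.0289 and 0.118 in MI4OE. The fast form was more abundant in all 6 libraries, and the ratio ranged over 22.8-fold with the groups overlapping (exact permutation p = 0.5, adjusted 0.643). Its log2 difference of 1.17 ran from 0.25 without MI4OE replicate 1 to 2.168 without MI4KO replicate 3. Mybph encodes myosin-binding protein H, a shorter relative found in fast fibres. Mybph measured 104, 108 and 40.03 CPM in the knockout libraries against 19.4, 102 and 52.9 CPM in the overexpressor libraries. It was low in the same libraries in which Mybpc1 was high, and its log2 fold change was -0.53 ± 0.59 (SE) with an adjusted edgeR p of 0.876. It was -0.12 with MI4OE replicate 1 left out, -1.22 with MI4OE replicate 2 left out and -0.88 with MI4KO replicate 3 left out. Mybpc3, the cardiac paralogue, had 0 counts in all 6 libraries.

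Mybpc1 also has 2 transcripts in the files, each with 1 coding exon that the other lacks. In GRCm38, NM_175418 has a 42-base exon 3 near the start of the coding sequence at chr10:88582007-88582048 on the minus strand. NM_001252372 lacks it and has a 59-base exon 27 near the end, at chr10:88521277-88521335 on the minus strand, a length that is not a multiple of 3 and so changes the reading frame of what follows. Both exons are given in capitals as the only sequence within the gene models, apart from their ends, that distinguishes the transcripts.

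Mybpc1 exon 3 of NM_175418: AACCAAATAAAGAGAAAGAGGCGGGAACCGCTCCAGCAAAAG
Mybpc1 exon 27 of NM_001252372: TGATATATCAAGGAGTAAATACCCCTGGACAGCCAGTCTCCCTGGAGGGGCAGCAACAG

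The balance of these Mybpc1 transcripts differed between mice. NM_001252372 took 4.86%, 15% and 17.4% of the gene's counts in MI4KO and 54.9%, 15.1% and 25.6% in MI4OE. MI4OE replicate 1 was the sole library in which it was the major form, and MI4OE replicate 2 lay inside the MI4KO range. The means were 12.4 ± 6.67% and 31.9 ± 20.6% (SD, n = 3), with an exact permutation p of 0.2, and the difference of 19.4 percentage points was 7.91 without MI4OE replicate 1 and 27.8 without MI4OE replicate 2. MI4KO replicate 3 and MI4OE replicate 1 had similar Mybpc1 levels, yet their shares of this transcript were 17.4% and 54.9%.

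At the Z-disc, Actn2 encodes alpha-actinin-2, which is present in all fibres of human muscle and in mouse mainly in oxidative ones, where the fast paralogue Actn3 is absent. Actn2 measured 225, 202 and 641 CPM in the knockout libraries against 2689, 260 and 812 CPM in the overexpressor libraries. The top library was 13.3-fold above the bottom one, MI4OE replicate 3 was above the other 4 libraries, and MI4OE replicate 2 fell between the MI4KO values. The group means were 356 ± 247 and 1254 ± 1273 CPM (SD, n = 3). The log2 fold change of 1.82 had a standard error of 0.83, a 95% interval from -0.11 to 3.74, an unadjusted p of 0.0612 and an adjusted edgeR p of 0.685. Without MI4OE replicate 1 it was 0.59. Actn2 was the member nearest to a call. It met the 1.5-fold rule with edgeR's exact test (unadjusted p = 0.0284, where 7.87% of tested genes met it) and with no filter on low counts (unadjusted p = 0.0345, where 6.71% did), with adjusted p of 0.464 and 0.637.

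Leaving out a low library of MI4OE or the high library of MI4KO brought further genes to that unadjusted rule. Without MI4KO replicate 3, Actn2, Mybpc1 and Myom3 met it with log2 fold changes of 2.53, 1.92 and 3.83, where 7.56% of tested genes met it. Without MI4OE replicate 2, Actn2 and Myom3 met it with 2.30 and 2.57, where 10.2% did. Their adjusted p in these edgeR fits lay between 0.309 and 0.603.

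Actn3 itself measured 19620, 15990 and 12920 CPM in the knockout libraries against 6391, 18080 and 13800 CPM in the overexpressor libraries, lowest in the library in which Actn2 was highest. The TPM ratio of Actn2 to Actn3 was 0.0111, 0.0122 and 0.0479 in MI4KO and 0.407, 0.0139 and 0.0569 in MI4OE. Alpha-actinin-3 transcripts were the more abundant in every library, MI4OE replicate 1 included. The ratio ranged over 36.7-fold, and its log2 difference of 1.88 between the groups gave an exact permutation p of 0.2, adjusted 0.6. That difference was 0.59 without MI4OE replicate 1 and 3.03 without MI4OE replicate 2.

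**Figure D2:**
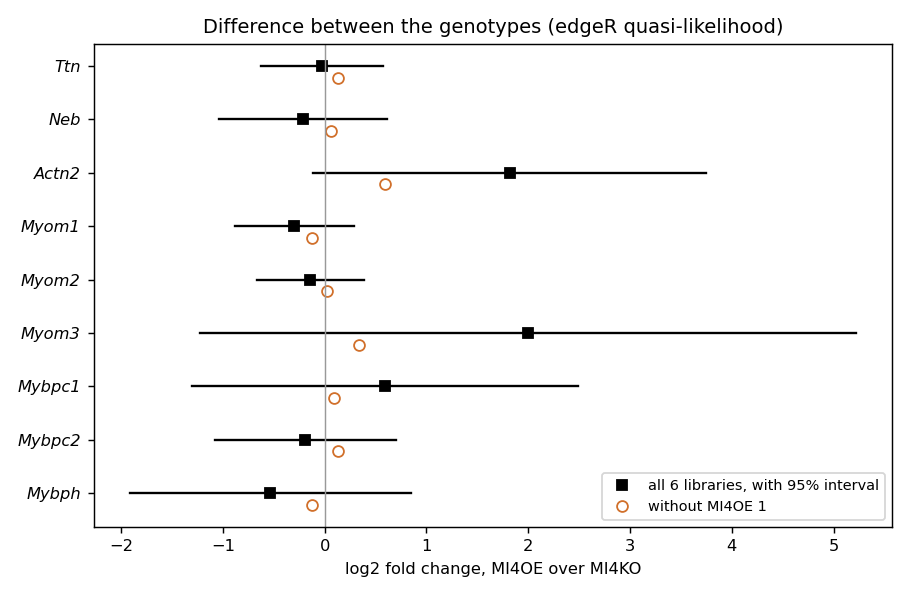
Log2 fold change of each scaffold gene, MI4OE over MI4KO, from edgeR's quasi-likelihood fit with its 95% interval (black), and the same value from the fit without MI4OE replicate 1 (open circles). All 9 intervals include 0, and the estimates for Actn2 and Myom3 move from 1.82 and 2.0 to 0.59 and 0.34.

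The 3 genes highest in MI4OE replicate 1 also had replicate 3 of each genotype in the middle and MI4KO replicates 1 and 2 and MI4OE replicate 2 at the bottom, with the order inside these sets differing between the genes. Their promoters are printed to show what the windows hold, from 250 bases before to 50 after the annotated start (RefSeq, GRCm38.p6). Of the scaffold genes, 7 matched an entry of that table, and Neb and Myom2 had none. Capitals mark an E-box CAGCTG, the site of myogenic factors, or a site for MEF2, a muscle transcription factor. The windows are chr4:135759465-135759764 on the plus strand for Myom3, chr10:88605103-88605402 on the minus strand for Mybpc1 and chr13:12340683-12340982 on the minus strand for Actn2.

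Myom3 promoter: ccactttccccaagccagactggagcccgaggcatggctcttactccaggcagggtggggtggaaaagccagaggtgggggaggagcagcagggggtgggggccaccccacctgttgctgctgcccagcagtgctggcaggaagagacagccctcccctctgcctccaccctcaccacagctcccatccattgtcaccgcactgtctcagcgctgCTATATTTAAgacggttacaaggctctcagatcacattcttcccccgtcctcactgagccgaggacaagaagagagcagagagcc
Mybpc1 promoter: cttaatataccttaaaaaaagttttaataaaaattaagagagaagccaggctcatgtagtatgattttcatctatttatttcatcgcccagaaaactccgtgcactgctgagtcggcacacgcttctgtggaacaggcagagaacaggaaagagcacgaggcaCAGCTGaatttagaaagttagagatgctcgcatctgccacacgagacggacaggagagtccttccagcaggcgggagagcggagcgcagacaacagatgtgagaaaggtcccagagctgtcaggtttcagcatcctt
Actn2 promoter: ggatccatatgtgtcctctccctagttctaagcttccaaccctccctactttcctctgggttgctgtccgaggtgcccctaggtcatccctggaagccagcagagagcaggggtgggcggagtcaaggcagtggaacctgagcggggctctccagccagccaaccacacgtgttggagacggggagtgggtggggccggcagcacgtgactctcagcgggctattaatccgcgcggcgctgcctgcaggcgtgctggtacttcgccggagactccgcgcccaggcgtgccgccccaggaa

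Both strands were searched. A MEF2 site occurred in Myom3 and in Ttn, or 2 of the 7 windows, and in 3.19% of the 32851 promoters in the table. The E-box occurred in Mybpc1 and in Mybph, or 2 of 7, and in 16.3% of all promoters. The interferon-stimulated response element (GAAA, any 2 bases, GAAA), a motif that IRF proteins bind, was in 0 of 7 windows and in 3.44% of all promoters. The composite element for ETS and IRF proteins (GGAA, any 2 bases, GAAA) was in 0 of 7 and in 2.72%. These IRF motifs differ from each other in 1 letter. The windows are short, and these counts describe letters only.

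Ttn encodes titin, the largest protein of the sarcomere. It measured 7356, 8702 and 5931 CPM in the knockout libraries against 5478, 8366 and 7757 CPM in the overexpressor libraries. The libraries of the 2 genotypes interleaved, and the highest exceeded the lowest by 1.59-fold. Its means were 7330 ± 1386 and 7200 ± 1522 CPM (SD, n = 3). The fitted log2 fold change was -0.03 ± 0.26 (SE), a 95% interval from -0.63 to 0.58 and an adjusted edgeR p of 0.992. With a scaling by total counts the value was 0.055, beside a shift of the median of all tested genes to 0.09. Neb, which encodes nebulin, measured 4482, 6345 and 3879 CPM in the knockout libraries against 2419, 5731 and 4552 CPM in the overexpressor libraries. Its order of libraries was identical to that of Ttn. The log2 fold change of Neb was -0.21 ± 0.35 (SE), and 0.07 without MI4OE replicate 1, with an adjusted edgeR p of 0.92. The TPM ratio of Ttn to Neb was 0.430, 0.366 and 0.384 in MI4KO and 0.563, 0.375 and 0.431 in MI4OE, and the groups overlapped (exact permutation p = 0.4, adjusted 0.6). The ratio of Myom1 to Ttn was likewise narrow, between 3.94 and 5.30 over the 6 libraries (exact permutation p = 0.2, adjusted 0.6).

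The 2 titin transcripts in the files are the models of the N2-A form, with a long spring, and the N2-B form, with a short spring typical of heart. NM_011652 (N2-A) is 101674 bases long with 313 exons in the GENCODE model of equal length, and 122 of these exons, or 22389 bases, are absent from NM_028004 (N2-B). An unbroken run of 121 of them is skipped by a single join in N2-B. The N2-B model has 192 exons and 1 exon of its own, a 2646-base coding exon 45 at chr2:76907308-76909953 on the minus strand of GRCm38. The joins that define the 2 forms are shown with 5 bases on each side of the join in capitals, 20 bases of each exon in all.

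Ttn N2-A join, past the exon of N2-B: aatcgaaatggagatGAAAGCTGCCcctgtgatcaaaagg
Ttn N2-B join, past 121 exons of N2-A: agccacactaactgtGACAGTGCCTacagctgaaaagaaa

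RSEM assigned 21.6%, 13.0% and 41.9% of titin counts to N2-A in MI4KO and 46.6%, 31.1% and 38.3% in MI4OE. MI4KO replicates 1 and 2 were the 2 lowest libraries, while MI4KO replicate 3 exceeded 2 of the MI4OE libraries. The means were 25.5 ± 14.9% and 38.7 ± 7.77% (SD, n = 3), a difference of 13.2 percentage points with an exact permutation p of 0.3. It was 21.4 percentage points when MI4KO replicate 3 was left out, 6.9 when MI4KO replicate 2 was, and 9.2 when MI4OE replicate 1 was. The log2 fold change of the N2-A transcript was 0.65 ± 0.31 (SE) with an unadjusted p of 0.0825, and that of N2-B was -0.31 ± 0.39 (SE), both with an adjusted edgeR p of 0.999. Over the fits that left out 1 library, N2-A ran from 0.41 to 0.98 and N2-B from -0.04 to -0.58, each from MI4KO replicate 2 to MI4KO replicate 3 as the library left out, and N2-B was -0.08 when MI4OE replicate 1 was.

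RSEM assigned the larger share to N2-B in all 6 libraries, although the tissue is skeletal muscle. The files hold only these 2 titin models, so reads of any other titin form were divided between them. Of 6 heart markers, Myl7 had 0 counts in each library and Nppa and Tnni3 had 0 to 5. Myh6, the fast cardiac myosin, had 160 counts in MI4OE replicate 1 and 1 to 28 in the others, and Myl4 and Tnnt2, which other striated muscle can also make, had 105 to 263 and 40 to 196 counts. Most exons are common to both titin models and reads were 50 bases, so the shares are estimates that rest on the exons and joins that differ. The files do not give the reads on them. Apart from exon 11, the exons of N2-A alone lie in 1 run, exons 47 to 167 of 313. Coverage along the transcript was not examined, so the shares do not show which form prevailed in the muscle.

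**Figure D3:**
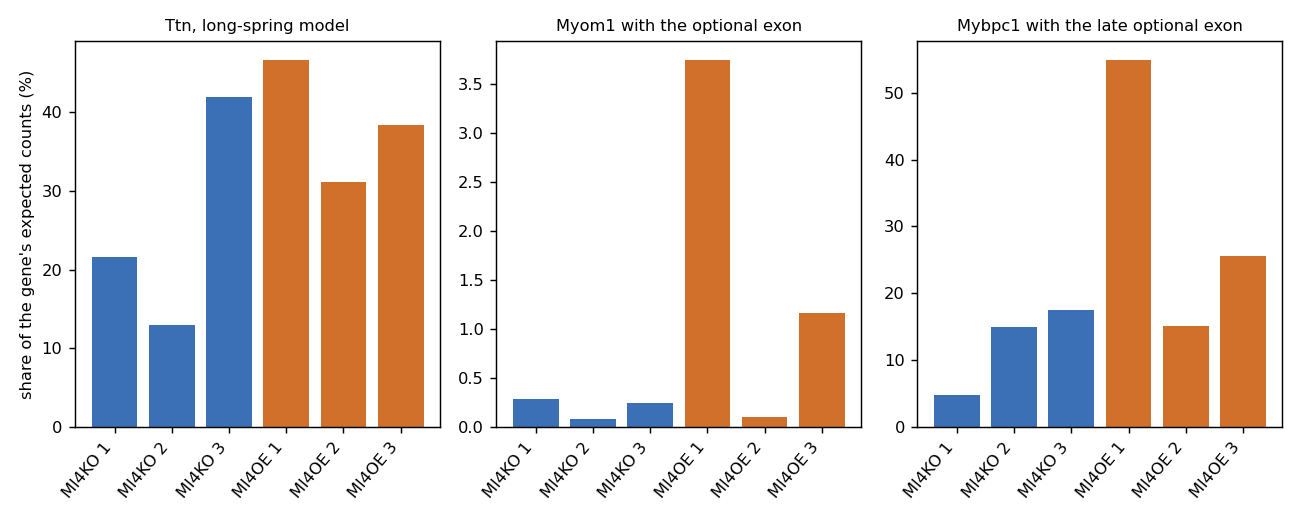
Share of the gene's expected counts, in percent, assigned to the N2-A transcript of Ttn, to the Myom1 transcript with the EH exon and to the Mybpc1 transcript NM_001252372 with exon 27 (the late optional exon), 1 bar per library, MI4KO in blue and MI4OE in orange, each panel with its own axis from 0. MI4OE replicate 1 is the highest bar in each panel, at 46.6%, 3.75% and 54.9%, and the genotypes overlap in all 3.

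Over the 12 transcripts, 0 passed an adjusted p of 0.05 by the quasi-likelihood test, where 0.00626% of 15983 transcripts passed. Also 0 reached an unadjusted p of 0.05, against 4.34%, and 0 passed with the exact test, against 0.576%. The transcript shares of the 3 genes with 2 transcripts all overlapped between the groups, whereas they did not overlap in 5.48% of the 1150 genes with 2 transcripts and at least 100 counts in each library. The range of the share over the 6 libraries was 33.7 percentage points for Ttn, 50.1 for Mybpc1 and 3.67 for Myom1, beside a median of 18.9 over those 1150 genes.

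Ordered by level per length, Mybpc2 came first with a mean of 4270 TPM over the 6 libraries. It was followed by Myom1 (590 TPM), Myom2 (551 TPM), Actn2 (430 TPM), Mybpc1 (399 TPM), Neb (330 TPM), Ttn (134 TPM), Mybph (66.9 TPM) and Myom3 (11.7 TPM). Mybpc2 was the sole gene whose range over libraries, 1803 to 5941 TPM, cleared that of its neighbour, Myom1 at 357 to 778 TPM. The ranges of every other neighbouring pair overlapped. Neb was nevertheless above Ttn, and Ttn above Mybph, in 6 of 6 libraries, while Actn2 was above Mybpc1 in 2 of 6. The mean of Actn2 rested on MI4OE replicate 1, at 1373 TPM, and its median of 252 TPM was below those of Mybpc1 (368 TPM) and Neb (304 TPM). The median of Myom3 was 6.88 TPM, with 42.6 TPM in that library.

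**Figure D4:**
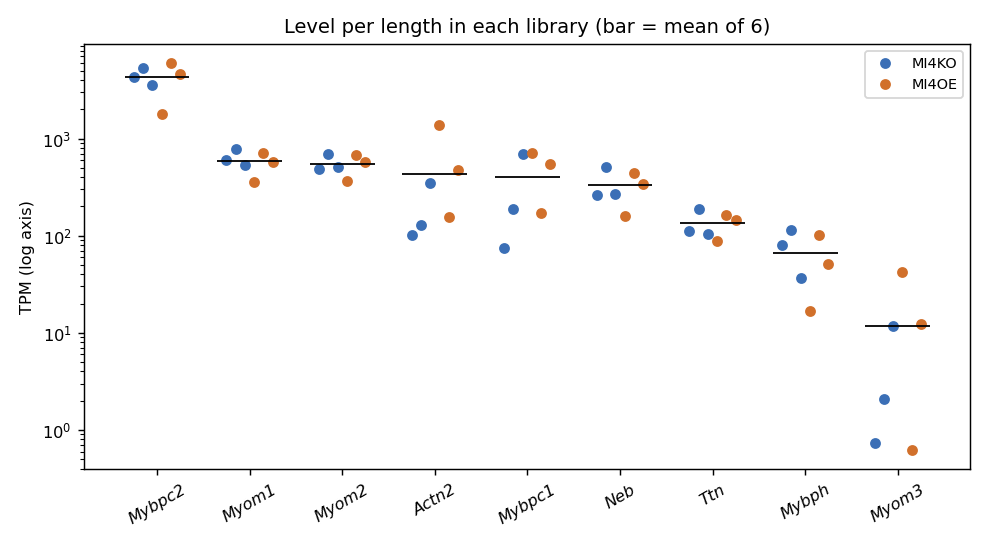
TPM, the level per length, of each scaffold gene in each library on a log axis, ordered by the mean over the 6 libraries (bar), with MI4KO in blue and MI4OE in orange. Mybpc2 lies above the rest in all 6 libraries, and the points of Actn2, Mybpc1 and Myom3 spread most.

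The spread between mice differed widely among the 9 genes. Over all 6 libraries the log2 range of CPM was 0.64 for Myom2, 0.67 for Ttn, 0.90 for Myom1, 1.39 for Neb and 1.49 for Mybpc2, beside a median of 0.86 over all tested genes. Those ranges were wider than in 33.1%, 35.2%, 52.0%, 75.3% and 78.3% of the tested genes. It was 2.48 for Mybph, 3.10 for Mybpc1, 3.73 for Actn2 and 6.29 for Myom3, wider than in 94.4%, 97.1%, 98.5% and 99.8% of the tested genes. This variation was present inside each genotype. Within MI4KO alone Myom3 ranged over 13.3-fold, Mybpc1 over 7.88-fold and Actn2 over 3.17-fold, and within MI4OE over 81.3-fold, 4.87-fold and 10.4-fold.

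Fibre-type genes also differed between the libraries, in part in step with the scaffold genes. Myh7, the myosin heavy chain of slow fibres, measured 0.205, 20.5 and 1.04 CPM in the knockout libraries against 1603, 0.280 and 162 CPM in the overexpressor libraries. The 11 slow-fibre markers summed to 47.0, 148 and 164 CPM in MI4KO and to 7632, 56.7 and 757 CPM in MI4OE. All 11 had a positive log2 fold change, 8 of them with an unadjusted p under 0.05, which 7.58% of all tested genes had, and 0 after adjustment. Their median was 5.14, and 1.83 without MI4OE replicate 1. Myh7 and the sum were highest in MI4OE replicate 1 and next in MI4OE replicate 3, as Actn2 was. MI4KO replicate 3, with 1708 CPM of Mybpc1 and 41.0 CPM of Myom3, came next after these by the sum of slow-fibre markers. That sum was close to the sum of MI4KO replicate 2, which had 393 CPM of Mybpc1 and 6.26 CPM of Myom3. By Myh7, MI4KO replicate 3 was below MI4KO replicate 2. Myh2, the myosin heavy chain of fast oxidative fibres, measured 3.44, 90.1 and 1022 CPM in the knockout libraries against 7421, 13.2 and 1808 CPM in the overexpressor libraries, so it was high in the same 3 libraries as Myom3, Mybpc1 and Actn2. The part of fibre type in the results was not tested, and in whole tissue fewer fibres of a type cannot be told apart from less RNA per fibre.

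**Figure D5:**
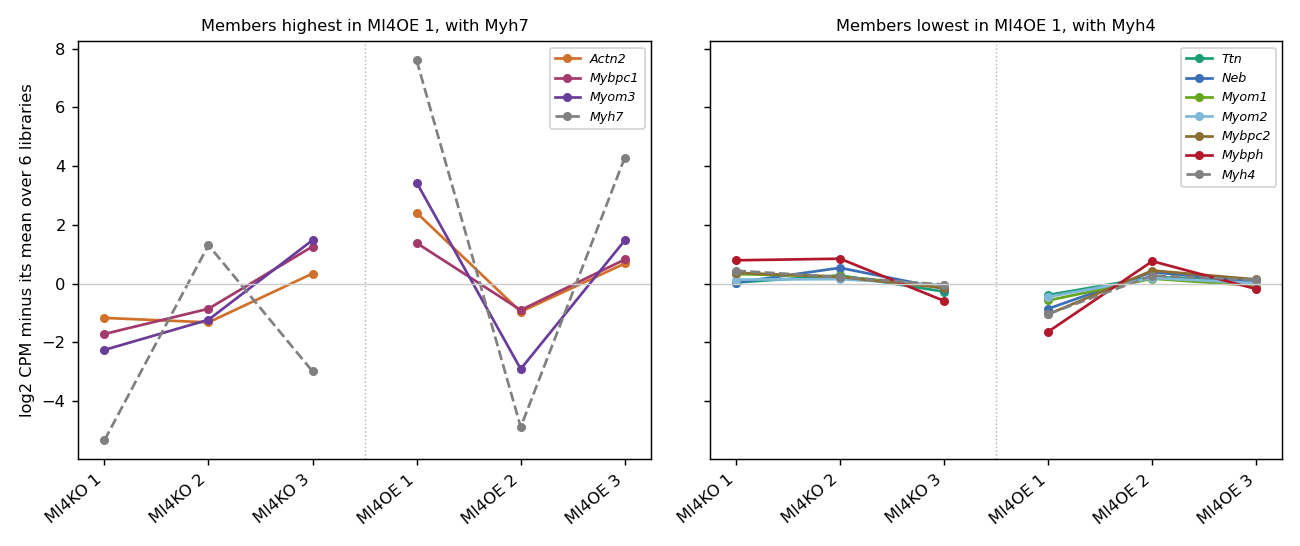
Log2 CPM of each gene minus its mean over the 6 libraries, with MI4KO libraries left and MI4OE libraries right of the dotted line. Left, Actn2, Mybpc1 and Myom3 peak in MI4OE replicate 1 and are above their mean in replicate 3 of both genotypes, with Myh7 dashed for comparison; right, the other 6 genes are lowest in MI4OE replicate 1, with Myh4, the fastest myosin heavy chain, dashed.

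The genes with profiles most like each member were found among 6404 other genes with a mean of at least 10 CPM, by the root mean square difference of centred log2 CPM over the 6 libraries. This difference is not scaled by a gene's own spread. Genes of narrow range, such as Ttn and Myom2, therefore reach small values more easily, and values are not comparable between members. The nearest to Mybpc2 were Fbxl4 (0.041) and Myh4 (0.089), the latter at 110600, 95420 and 79760 CPM in MI4KO and 39860, 98740 and 89260 CPM in MI4OE. Those nearest to Actn2 were Grb14 (0.082) and Vgll2 (0.256), and those nearest to Myom3 were Ldhb (0.416), the heart-type lactate dehydrogenase subunit, and Csrp3 (0.499), a Z-disc LIM protein. Ldhb measured 8.84, 18.2 and 73.6 CPM in the knockout libraries against 631, 8.77 and 108 CPM in the overexpressor libraries. Mybpc1 was nearest to Evc (0.266) and Selenbp1 (0.362), and Mybph to Nrip1 (0.157) and Ttll7 (0.184). For Ttn they were Golga4 (0.031) and Polr1b (0.040), for Neb Socs6 (0.033) and Prrc2b (0.045), for Myom1 Limd1 (0.029) and Zhx2 (0.036), and for Myom2 Tor1b (0.021) and Srf (0.022), the serum response factor. No member was the nearest gene of another. Actn2 was the 16th nearest gene to both Myom3 and Mybpc1, Myom2 stood at place 193 of the list of Myom1, and Myom1 at place 453 of that of Myom2.

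The partners of these proteins were examined by list, and in none of the lists did a gene pass the adjusted edgeR test. Of the 23 tested Z-disc genes 0 reached an unadjusted p of 0.05, which 7.58% of all tested genes reached. The Z-disc log2 fold changes had a median of -0.06 and ran from -0.41 for Myoz1 to 3.42 for Myoz2, the slow-fibre calsarcin, which was at 420 CPM in MI4OE replicate 1 and at 2.29 to 62.6 CPM in the others. Of 17 thin filament genes 4 reached it, beside the same 7.58%, all higher in MI4OE, with a median over the list of -0.15. They were Tnni1, Tnnt1, Tnnc1 and Tpm3, the slow forms of the troponins and tropomyosin. Of 10 tested thick filament genes 2 reached it, again beside 7.58%, Myh7 and Myl2, with a list median of 0.98. Tnni1 and Myh7 were the highest of these lists, at 6.87 and 6.35, and Tmod4 and Mylk4 the lowest, at -0.47 and -0.55. With MI4OE replicate 1 left out, Tnni1 was at 3.68, Myh7 at 3.49, Myoz2 at 1.10 and Mylk4 at -0.21, and the medians of the Z-disc, thin and thick filament lists were -0.04, -0.10 and 0.75.

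Of 17 tested partners of titin, the M-band and obscurin, 3 reached an unadjusted p of 0.05, against 7.58% of all tested genes, and the list median was -0.10, or 0.06 without MI4OE replicate 1. Trim63, the M-band ubiquitin ligase MuRF1, measured 810, 263 and 203 CPM in the knockout libraries against 158, 185 and 204 CPM in the overexpressor libraries. Its log2 fold change of -1.22 had an adjusted edgeR p of 0.626, and MI4KO replicate 1 alone was high. Ankrd2, an ankyrin repeat protein that binds the N2-A region of titin, measured 6.14, 5.35 and 32.0 CPM in the knockout libraries against 525, 2.90 and 53.5 CPM in the overexpressor libraries. It had the library order of Actn2 at its upper end, and its log2 fold change of 3.74 was 0.95 without MI4OE replicate 1. Ankrd23, a relative of Ankrd2 with the same binding site on titin, was singled out after its values were seen. It measured 1423, 1507 and 1273 CPM in the knockout libraries against 2122, 2104 and 1966 CPM in the overexpressor libraries. Here all 3 MI4OE libraries lay above all 3 MI4KO libraries, as groups did not overlap in 12.9% of all tested genes. The one other gene of the list without overlap was Ckm, the muscle creatine kinase bound at the M-band, which lay lower in all 3 MI4OE libraries (log2 fold change -0.40). The log2 fold change of Ankrd23, 0.56 ± 0.18 (SE) and 0.54 without MI4OE replicate 1, had an unadjusted p of 0.0168 and an adjusted edgeR p of 0.546. Over 17 alternatives the adjusted p of Ankrd23 ran from 0.0463, with DESeq2, to 0.933.

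Of the 10 regulators that splice titin and other sarcomere transcripts, 0 reached an unadjusted p of 0.05, against 7.58% of all tested genes. Among these regulators, log2 fold changes ran from -0.44 for Mbnl2 to 0.38 for Ptbp1, around a median of -0.21 (-0.09 without MI4OE replicate 1). Rbm20, the splicing repressor that shortens the titin spring, was looked up for its role after the values were seen. It measured 44.1, 52.8 and 24.7 CPM in the knockout libraries against 36.2, 51.1 and 40.6 CPM in the overexpressor libraries, a log2 difference of 0.08 that did not pass the edgeR test. MI4KO replicate 2 had the highest Rbm20 and the lowest N2-A share, at 13.0%. MI4OE replicate 2 had nearly as much Rbm20 with a share of 31.1%, above the 21.6% of MI4KO replicate 1. A relation of Rbm20 to the share was not tested.

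Other cells of the tissue were followed by marker lists, in each of which 0 genes passed the adjusted test. The 7 adipocyte genes summed to 184, 346 and 966 CPM in MI4KO and 266, 139 and 114 CPM in MI4OE. Fabp4 alone was 128, 212 and 398 CPM in MI4KO and 260, 104 and 104 CPM in MI4OE, most of the sum outside MI4KO replicate 3. All 7 had a negative log2 fold change, and 6, all but Fabp4, had an unadjusted p under 0.05, which 7.58% of all tested genes had. Those 6 were each lowest in MI4OE replicate 1. The list median was -3.62, and -3.28 without MI4OE replicate 1. Plin1, Cidec, Lep and Adipoq, singled out after their values were seen, reached adjusted p of 0.00727, 0.0137, 0.0183 and 0.0285 in the alternative most favourable to each, as did Col1a2 of the fibroblast list with 0.0356. The 9 fibroblast and tendon genes and the 6 endothelial genes all had a positive log2 fold change. Of these, 7 and 4 had an unadjusted p under 0.05, beside 7.58% of all tested genes. The list medians were 0.77 and 0.89 (0.68 and 0.63 without MI4OE replicate 1). Fibroblast and tendon genes summed to 208 to 319 CPM in MI4KO and 369 to 513 CPM in MI4OE, and endothelial genes to 80.3 to 132 and 154 to 304 CPM. The 12 fast-fibre genes had a median of -0.32, from -0.51 for Pvalb to 3.05 for Myh2 (1.297 without MI4OE replicate 1), and summed to 231900 to 307200 CPM in MI4KO and 164100 to 244800 CPM in MI4OE. Of the erythrocyte genes Hbb-bs and Hba-a2 had 0 counts in each library, while Hbb-bt had 112 to 432 and Hba-a1 2679 to 8854. RSEM's counts of near-identical paralogues are uncertain, so these zeros do not show that the genes were silent. Myl7 of the 6 cardiac genes also had 0 counts in each library. Medians were 0.87 for 3 tested erythrocyte genes, -0.24 for 5 macrophage, 1.01 for 5 Schwann cell, 0.26 for 4 satellite cell and 0.23 for 2 cardiac genes. With MI4OE replicate 1 left out they were, in that order, 0.26, -0.45, 1.15, 0.01 and -0.01. Their sums over all listed genes, MI4KO then MI4OE, were 112 to 173 and 162 to 463 CPM for erythrocytes, 25.05 to 43.0 and 17.0 to 33.8 CPM for macrophages, and 28.0 to 118 and 75.8 to 221 CPM for Schwann cells. Satellite cell genes summed to 12.6 to 27.9 and 18.7 to 21.7 CPM, and cardiac genes to 7.96 to 16.2 and 10.8 to 25.4 CPM. The part of these cells in the values of the scaffold genes was not tested.

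By length, Ttn and Neb belonged to the 213 tested genes over 10 kb. The median log2 fold change in that class was 0.01, beside 0.03 for the 3877 genes under 2 kb, which include Mybph. The scaffold genes of 2 to 5 kb (Myom2, Mybpc1, Mybpc2 and Actn2) and of 5 to 10 kb (Myom1 and Myom3) belonged to classes with medians of -0.02 and 0.00. Without MI4OE replicate 1 the class medians rose with length, from -0.10 under 2 kb through 0.00 and 0.07 to 0.13 over 10 kb, beside 0.13 for Ttn and 0.07 for Neb in that fit.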

How the data were processed

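RNA of gastrocnemius muscle was sequenced by the authors from mRNA-enriched, strand-specific Kapa libraries as single reads of 50 bases. By the study's methods and per the labels, bcl2fastq 2.17 made the reads, Bowtie2 2.1.0 mapped them to a UCSC transcript set and RSEM 1.2.15 quantified them. The genome build was not given in the sources used here. The deposited expected counts, per gene and per transcript, are RSEM estimates that were not normalized. RSEM shares a read among the transcripts it matches, so counts of near-identical paralogues and of transcripts that differ by few exons are uncertain. TPM values, also deposited, are abundances that RSEM adjusted for length, and the deposited percent values give each transcript's share of its gene's TPM. The authors also deposited tables of fold changes, p-values and false discovery rates, which were not used.

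Expected counts were rounded to whole numbers. Genes were kept with filterByExpr (minimum count 10, minimum total 15), which left 12660 of 24054 genes and 15983 of 33705 transcripts. TMM scaling and edgeR 4.0.16's quasi-likelihood test in R 4.3.3 compared MI4OE with MI4KO over all of them, with Benjamini-Hochberg adjustment. Alternatives used DESeq2 1.42.0, edgeR's exact test and limma 3.58.1 on log2(TPM + 1) and log2(TPM + 0.1), other filters and scalings, and fits without each library. Transcript shares and TPM ratios were compared by two-sided exact permutation tests, which with 3 libraries per group cannot give a p below 0.1. The fitting code was tested on simulated counts with known fold changes. Groups came from the genotype label. Nothing says how mice were housed or processed together, so p-values measure the spread between these libraries. No binomial interval is given for a transcript share, since RSEM's counts include reads that fit both transcripts.

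Exons were compared in the GENCODE M21 annotation of GRCm38. RefSeq identifiers were matched through GENCODE's own list, except that of the N2-A titin transcript, which was matched by its length. The genes named were the 9 scaffold genes, Irf4, the paralogues in the ratios, the genes of lowest and highest log2 fold change and any call in each list, and the 2 nearest profiles per scaffold gene. Genes named outside this rule are identified as such, or stand in a count of 5 or fewer, or are the heart markers, all 6 of which are given. The scaffold genes and lists were chosen with earlier results of these data known.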

Additional observations from a re-analysis of the deposited data

How the results depend on the processing

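Of 30 results (9 genes, their median, 2 counts, 6 transcripts, 3 shares and 9 ratios), 22 kept their direction and their side of the threshold in every alternative run. No alternative gave any scaffold gene an adjusted p under 0.05. With no filter on low counts, and with edgeR's exact test, 1 gene met the 1.5-fold rule in place of 0, and this count ran from 0 to 3 over the fits without 1 library, being 3 without MI4KO replicate 3 and 2 without MI4OE replicate 2. With total counts in place of TMM the log2 fold change of Ttn was 0.055 in place of -0.026, beside a shift of 0.0896 in the median of all genes. The reversals below came with fewer samples, and their further cause was not tested. Over the fits without 1 library, the median over the 9 genes ran from -0.283 to 0.088, Ttn from -0.170 to 0.134, Neb from -0.493 to 0.066, Myom2 from -0.283 to 0.021, Mybpc2 from -0.498 to 0.133, transcript NM_175418 of Mybpc1 from -0.324 to 1.36 around a value of 0.10, and the log2 ratio of Myom3 to Myom2 from -0.065 to 3.42. The highest values of the first 5, and the lowest of the ratio, were without MI4OE replicate 1. No paired analysis was possible because libraries were numbered in accession order and nothing links equal numbers. Depth did not limit the abundant genes, but Myom3 and the Myom1 transcript with the EH exon rested on under 100 counts in some libraries.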
